A study of Mus musculus with 2 samples.

Results

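Adrenomedullin, encoded by Adm, is a vasodilator peptide, and the 5 genes described here are its transcript and those of its receptor: Calcrl, Ramp1, Ramp2 and Ramp3. They were taken by symbol from the 31053 genes of the deposited count matrices, and the set was chosen by the difference in Adm level between the libraries, which was already known. That difference is therefore given as a description, with no test. The data are single-cell RNA counts of tumour-infiltrating leukocytes from mice bearing AB1-HA, a mouse mesothelioma line. One group received an antibody against VEGF, the vascular growth factor, and the other a control antibody. Each group is 1 library, labelled as CD45+ cells from mesothelioma. The mouse strain, the age, the antibody dose and the number of mice behind each library are not given in the sources used here. With 1 library per group there is no replicate check, and the library and the antibody cannot be told apart. Ratios are given with intervals that cover counting error only, and no test between the groups was made.

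CALCRL is a G protein-coupled receptor that reaches the cell surface only with a RAMP partner. RAMP1 turns it into the receptor for the neuropeptide CGRP, while RAMP2 and RAMP3 turn it into the adrenomedullin receptors. The receptor signals mainly through cyclic AMP, and in blood and lymphatic vessels the pathway is known for dilating vessels and for keeping the endothelial barrier tight. Adm transcription is a known response to low oxygen, through the hypoxia-inducible factors.

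In the GENCODE vM21 annotation of GRCm38, the build of the files, all 5 genes are protein coding. Adm (ENSMUSG00000030790) lies on the plus strand of chromosome 7, from 110627661 to 110629820. Calcrl (ENSMUSG00000059588) lies on the minus strand of chromosome 2, from 84330626 to 84425411. Ramp1 (ENSMUSG00000034353) lies on the plus strand of chromosome 1, from 91179822 to 91225196. Ramp2 (ENSMUSG00000001240) and Ramp3 (ENSMUSG00000041046) lie on the plus strand of chromosome 11, from 101246028 to 101259546 and from 6658521 to 6677475. The span of Ramp2 overlaps Vps25 on the same strand and that of Adm overlaps the antisense gene Gm28863. Reads from such overlaps could not be separated here.

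The sequence just upstream of Adm is shown because the Adm level followed the level of other hypoxia genes from cell to cell, as described further on. The hypoxia-inducible factors bind at the letters ACGTG or GCGTG, and these were searched on both strands. The 250 bases before the RefSeq start site (GRCm38.p6, chr7:110627407-110627656, plus strand, 5′ to 3′) held 2 matches, in capitals. Both read as CACGC here, which is GCGTG on the opposite strand. They lie 90 to 86 and 54 to 50 bases before the start site and do not overlap.
Adm upstream: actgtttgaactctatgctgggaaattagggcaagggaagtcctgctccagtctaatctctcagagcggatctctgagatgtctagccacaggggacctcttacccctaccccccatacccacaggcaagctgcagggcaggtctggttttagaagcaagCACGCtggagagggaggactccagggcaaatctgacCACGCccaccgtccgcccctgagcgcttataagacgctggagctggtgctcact
The same stretch held 2 matches for Ramp3 and none for Calcrl or Ramp1, and Ramp2 has no entry in that table. Of the 32851 promoters in the RefSeq table, 38.6% held at least 1 match in this window and 16.7% held 2 or more. A match describes the letters and does not show binding.

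After filtering, the anti-VEGF library held 8159 cells with a median of 22503 UMIs, counts of distinct RNA molecules, and the control library 10805 cells with a median of 18265. A UMI of Ptprc, the gene of CD45, was found in 72.4% of anti-VEGF cells and 66.5% of control cells. Cells were placed in classes by how many markers of a fixed list they held. Macrophage-gated cells numbered 3423 in the anti-VEGF library and 4482 in control, and macrophages that also held monocyte markers 688 in anti-VEGF and 659 in control. Acp5-high cells, which hold osteoclast-type genes such as Acp5 and Ctsk, numbered 780 in anti-VEGF and 1118 in control. Collagen-gated cells without Ptprc numbered 574 in the anti-VEGF library and 395 in control. Of these, 82.6% in the anti-VEGF library and 76.5% in control held Msln, the mesothelioma antigen mesothelin, and 19.0% in the anti-VEGF library and 18.0% in control held the keratin Krt8. Krt18, Krt19, Wt1 and Upk3b were each found in at most 2.44% of these cells in either library. With the listed markers divided in this way, the cells are called by their collagen genes here. Collagen-gated cells with Ptprc numbered 143 in anti-VEGF and 104 in control, of which 102 anti-VEGF and 75 control cells met the gates of 2 lineages. Neutrophil-gated cells numbered 382 in anti-VEGF and 89 in control. The smaller classes were T-gated cells (101 anti-VEGF, 191 control), NK-gated cells (29 anti-VEGF, 67 control) and mature dendritic cells, or mature DC (24 anti-VEGF, 57 control). Endothelial-gated cells, the usual site of this receptor, numbered only 2 in anti-VEGF and 5 in control. Cells that met no gate numbered 1978 in anti-VEGF, with a median depth of 4199 UMIs, and 3554 in control, with 1588. Cells that met the gates of 2 lineages made up 4.35% of the anti-VEGF library and 3.29% of control.

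Adm was abundant in macrophages, and it was higher in the anti-VEGF library. Its level was 46.7 CPM (UMIs per 1000000 UMIs of the class, 95% Poisson interval 45.3 to 48.2, from 4070 UMIs) in anti-VEGF macrophage-gated cells, against 12.2 CPM (11.5 to 12.8, from 1254 UMIs) in control macrophage-gated cells. The ratio was 3.84 (3.61 to 4.10). Macrophage-gated cells supplied 56.7% of all Adm UMIs in the anti-VEGF library and 57.8% in control. They were thus the largest source of the transcript in both libraries, but they were also the largest class. They held 42.2% of all UMIs in the anti-VEGF library and 46.1% in control. By Adm level, they ranked 1 of 11 classes with 20 or more cells in the anti-VEGF library and 7 of 13 in control. The control rank includes cells that met the gates of 2 lineages. Without them, 0 control Adm UMIs were left in plasmacytoid dendritic (pDC-gated), 0 in neutrophil-gated and 5 in T-gated cells, all classes ranked higher. In the others ranked higher, 6 were left in mature DC, 8 in collagen-gated cells with Ptprc and 194 in those without. The 20 UMIs of control pDC-gated cells lay in 1 cell.

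The same direction was found in every class with enough counts. Adm stood at 36.6 CPM in anti-VEGF monocyte-marker macrophages and at 10.5 CPM in control ones (ratio 3.50). In Acp5-high cells, where Adm was lower than in other macrophages, it was 6.13 CPM in the anti-VEGF library and 2.26 CPM in control (2.71-fold). Collagen-gated cells without Ptprc held 29.8 CPM in the anti-VEGF library and 13 CPM in control (2.29-fold, 1.963 to 2.68), so that the difference was also present in cells without a CD45 transcript. There it fell below the fold rule with cells thinned to 5000 UMIs, at a log2 ratio of 0.49 in place of 1.14, from 98 anti-VEGF and 44 control UMIs. Counting a ratio of at least 1.5 with 30 or more UMIs as a difference, Adm was higher in 7 of 7 classes compared. The share of all genes that were higher by this rule was 5.58% in macrophage-gated, 5.15% in monocyte-marker, 3.28% in Acp5-high, 4.56% in collagen-gated cells without Ptprc, 4.07% in those with Ptprc, 8.72% in neutrophil-gated and 7.12% in T-gated cells. Since Adm was chosen for this difference, these shares are given only for scale.

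**Figure D1:**
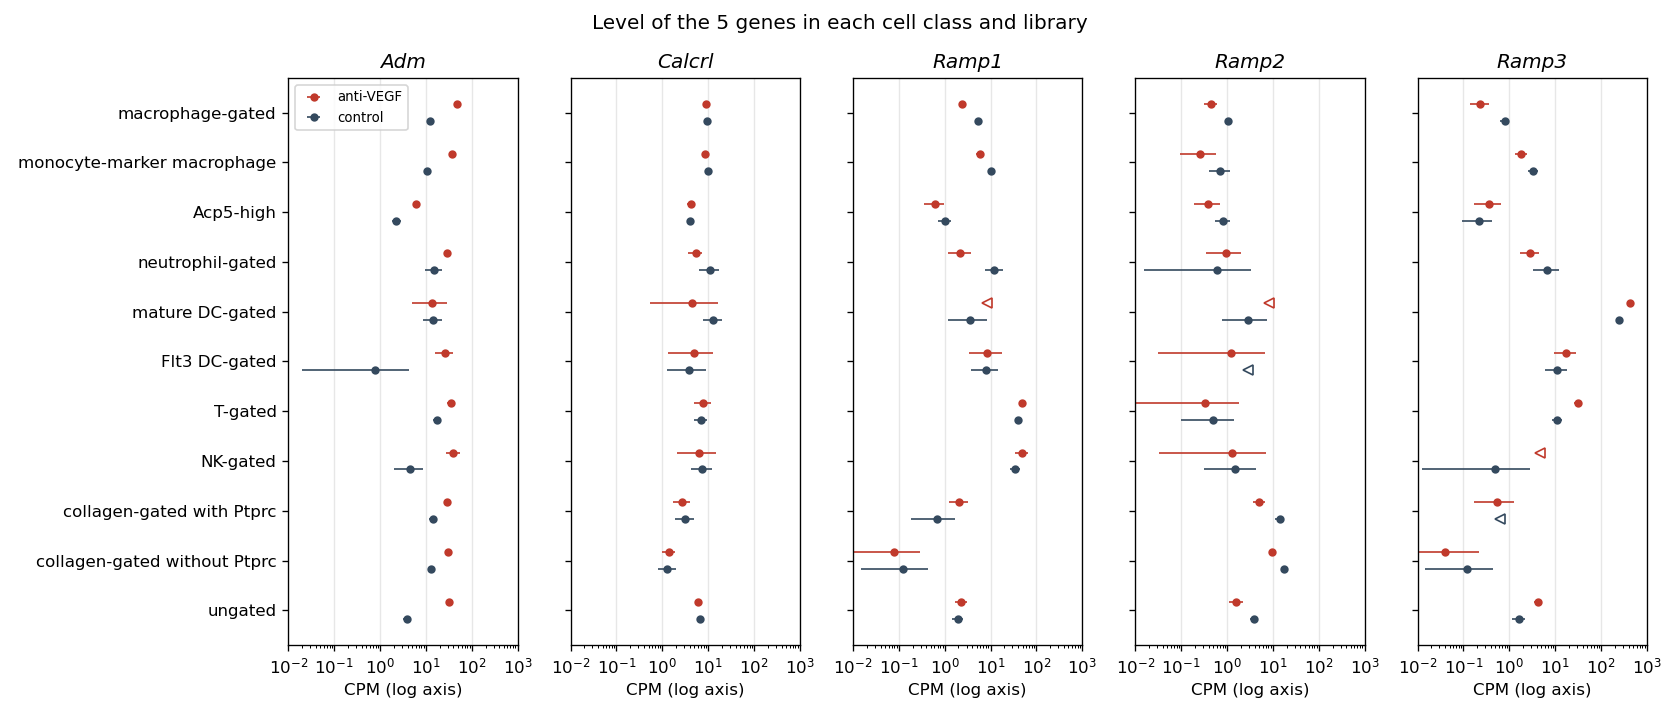
Level of each gene (CPM, log axis) in 11 cell classes, with the anti-VEGF library (red) above the control library (dark blue). Bars are 95% Poisson intervals (counting error only), and open triangles mark the upper limit where no UMI was found. Adm in macrophage-gated cells sits at 46.7 in the anti-VEGF library and 12.2 in control, while Ramp3 peaks in mature DC at 427 in the anti-VEGF library and 252 in control.

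In the lymphoid and neutrophil gates, the Adm counts came almost wholly from cells that also met a second gate, in most cases the macrophage gate. T-gated cells held 35.9 CPM in the anti-VEGF library and 17.2 CPM in control, but only 1 anti-VEGF and 5 control Adm UMIs were left once cells meeting the gates of 2 lineages were removed. Neutrophil-gated cells held 28.7 CPM in the anti-VEGF library and 15.2 CPM in control, with 3 anti-VEGF and 0 control UMIs left. NK-gated cells kept 0 UMIs in both libraries. The ratios of 2.09 in T-gated and 1.90 in neutrophil-gated cells therefore rest on cells of 2 lineages. Collagen-gated cells with Ptprc, most of them cells of 2 lineages, had an Adm ratio of 1.94 (1.52 to 2.51). Without such cells it was 6.22 (2.97 to 15.1), from 62 anti-VEGF and 8 control UMIs.

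More macrophages held Adm, and each held more of it. At least 1 Adm UMI was found in 29.0% of anti-VEGF macrophage-gated cells and in 8.92% of control ones. With every cell thinned to 5000 UMIs, which left out 93 anti-VEGF and 532 control cells, the shares were 14.4% in the anti-VEGF library and 3.59% in control. T-gated cells below the macrophage gate, taken here as a background, gave 5.66% (3 of 53 cells) in the anti-VEGF library and 4.05% (3 of 74) in control. A few of them still met the gates of 2 lineages. T-gated cells without 2 lineages (50 anti-VEGF, 72 control) held 1 anti-VEGF and 5 control Adm UMIs. Median depths below the macrophage gate were 8701 UMIs in anti-VEGF and 7400 in control. Macrophage-gated cells had 22896 UMIs in anti-VEGF and 21532 in control. Cells with 10 or more Adm UMIs made up 2.98% of anti-VEGF and 0.647% of control macrophage-gated cells. The mean among cells with any was 4.09 UMIs in the anti-VEGF library and 3.13 in control. The transcript was less concentrated in the anti-VEGF library, where the 1% of macrophage-gated cells with the most Adm held 18.7% of its UMIs, than in control, where such cells held 44.6%.

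**Figure D2:**
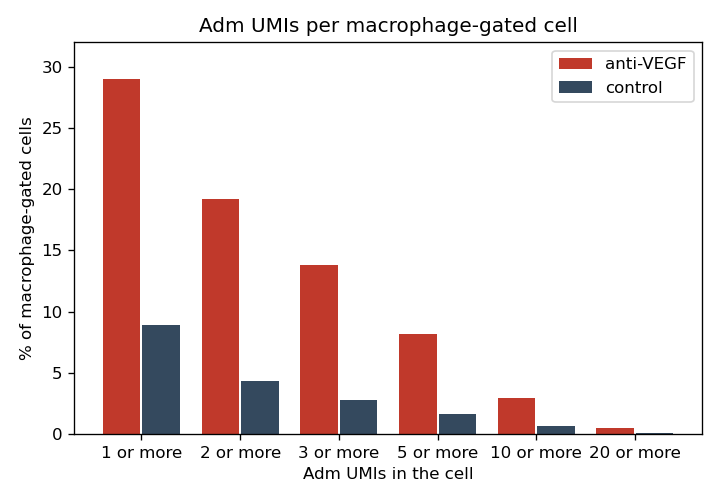
Percent of macrophage-gated cells (vertical axis) with at least the stated number of Adm UMIs (horizontal axis), anti-VEGF (red) left of control (dark blue). At 1 or more UMIs the bars stand at 29.0% in the anti-VEGF library and 8.92% in control, and at 10 or more at 2.98% in the anti-VEGF library and 0.647% in control.

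Within macrophage-gated cells, Adm followed the other genes of the hypoxia response, which include the glucose transporter Slc2a1, the mitophagy receptor Bnip3, Ndrg1 and Vegfa. Cells of both libraries were ranked together by the summed UMIs of 17 such genes, leaving out Adm, and cut into 5 equal bins. From the lowest bin to the highest, Adm in the anti-VEGF library was 0.762, 1.56, 5.87, 21.9 and 109 CPM. In the control library it was 1.37, 2.12, 6.02, 21.5 and 112 CPM in the same bins. At a like level of the other hypoxia genes the libraries were close, with ratios of 0.557 (0.144 to 1.55), 0.733 (0.388 to 1.30), 0.974 (0.745 to 1.27), 1.02 (0.885 to 1.18) and 0.979 (0.902 to 1.06).

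What differed was how many cells sat in the high bins. The highest bin held 37.6% of anti-VEGF macrophage-gated cells and 6.58% of control ones, and the lowest held 7.01% in the anti-VEGF library and 29.9% in control. When the anti-VEGF levels per bin were weighted by the control spread of UMIs over the bins, Adm came to 11.7 CPM, against 12.2 CPM in control, a ratio of 0.964 in place of 3.84. With 10 bins this ratio was 0.880, and with the 4 glycolysis genes Pgk1, Ldha, Hk2 and Slc2a1 left out it was 1.12. Some single bins of these alternatives had intervals that left out 1, in opposite directions. The highest of 10 bins had a ratio of 0.832 (0.750 to 0.925). Without the glycolysis genes, bins 4 and 5 had ratios of 1.23 (1.07 to 1.43) and 1.10 (1.01 to 1.19). The intervals of the other bins held 1. Collagen-gated cells without Ptprc, binned by the same genes on their own, gave 1.10 (0.915 to 1.32) in place of 2.29. This matching describes cells within 2 libraries and does not separate cause from effect, since the bins themselves differ with the library.

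**Figure D3:**
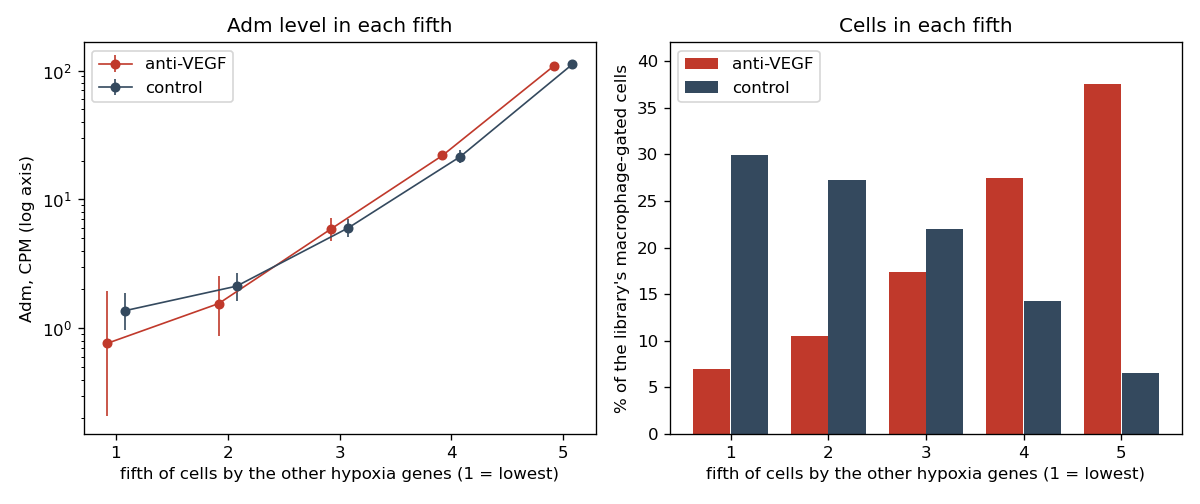
Left, Adm level (CPM, log axis) of macrophage-gated cells in 5 equal bins by the summed level of 17 other hypoxia genes, with 95% Poisson intervals; right, percent of each library's macrophage-gated cells in each bin. Anti-VEGF is red and control dark blue. The levels run together, reaching 109 in anti-VEGF and 112 in control in the highest bin, while that bin holds 37.6% of anti-VEGF and 6.58% of control cells.

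Adm was also higher in each macrophage state. In cells with all 6 MHC class II markers, which present antigen, Adm was 27.8 CPM in the anti-VEGF library and 5.27 CPM in control (5.27-fold, 4.34 to 6.44). In cells with the interferon-response markers it was 72.1 CPM in the anti-VEGF library and 10.8 CPM in control (6.67-fold, 5.08 to 8.89). In Selenop/Stab1 cells, which carry markers of resident-type macrophages such as Folr2 and Cd163, it was 41.9 CPM in the anti-VEGF library and 17.1 CPM in control (2.44-fold, 2.15 to 2.78). Cycling cells held 23.5 CPM in the anti-VEGF library and 7.14 CPM in control (3.30-fold). The other hypoxia genes summed to 50.7 UMIs per 10000 in anti-VEGF interferon cells and 22.4 in control ones, and their part in the difference was not tested.

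Calcrl, the receptor itself, had 57.3% of its UMIs in macrophage-gated cells in the anti-VEGF library and 57.9% in control. These cells held 42.2% of all UMIs in the anti-VEGF library and 46.1% in control. By Calcrl level, they ranked 1 of 11 classes with 20 or more cells in the anti-VEGF library and 5 of 13 in control. Ranked higher in control were monocyte-marker macrophages and the mature DC, pDC and neutrophil gates. Without cells of 2 lineages, control Calcrl UMIs left were 2 in mature DC, 1 in pDC-gated and 0 in neutrophil-gated cells. Of the 18 control UMIs in mature DC, 13 lay in 1 cell. Calcrl did not differ in them by the 1.5-fold rule. Its level was 8.96 CPM in anti-VEGF macrophage-gated cells and 9.26 CPM in control ones (ratio 0.968, 0.880 to 1.07). Monocyte-marker macrophages held 8.71 CPM in the anti-VEGF library and 9.82 CPM in control (0.887, 0.730 to 1.08), and Acp5-high cells held less, 4.18 CPM in the anti-VEGF library and 4.03 CPM in control. Collagen-gated cells without Ptprc held 1.39 CPM in the anti-VEGF library and 1.28 CPM in control. At least 1 UMI was found in 18.0% of anti-VEGF and 16.2% of control macrophage-gated cells, and in 3.77% of anti-VEGF and 2.70% of control T-gated cells below the macrophage gate. Thinned to 5000 UMIs, the shares in macrophage-gated cells were 4.29% in the anti-VEGF library and 4.28% in control.

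Of the 7 classes compared, Calcrl passed the fold rule in 1, neutrophil-gated cells, where it was 5.34 CPM in the anti-VEGF library and 10.9 CPM in control. Only 1 anti-VEGF and 0 control UMIs were left there without cells of 2 lineages. The share of genes that were lower by this rule was 8.1% in neutrophil-gated cells. Across hypoxia bins, Calcrl ratios lay between 0.780 and 1.19. In the interferon state Calcrl was 7.74 CPM in the anti-VEGF library and 11.9 CPM in control (0.652, 0.431 to 0.975), and in the other states it lay within 0.779 to 1.09 of control. The ligand and its receptor thus did not move together between the libraries.

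**Figure D4:**
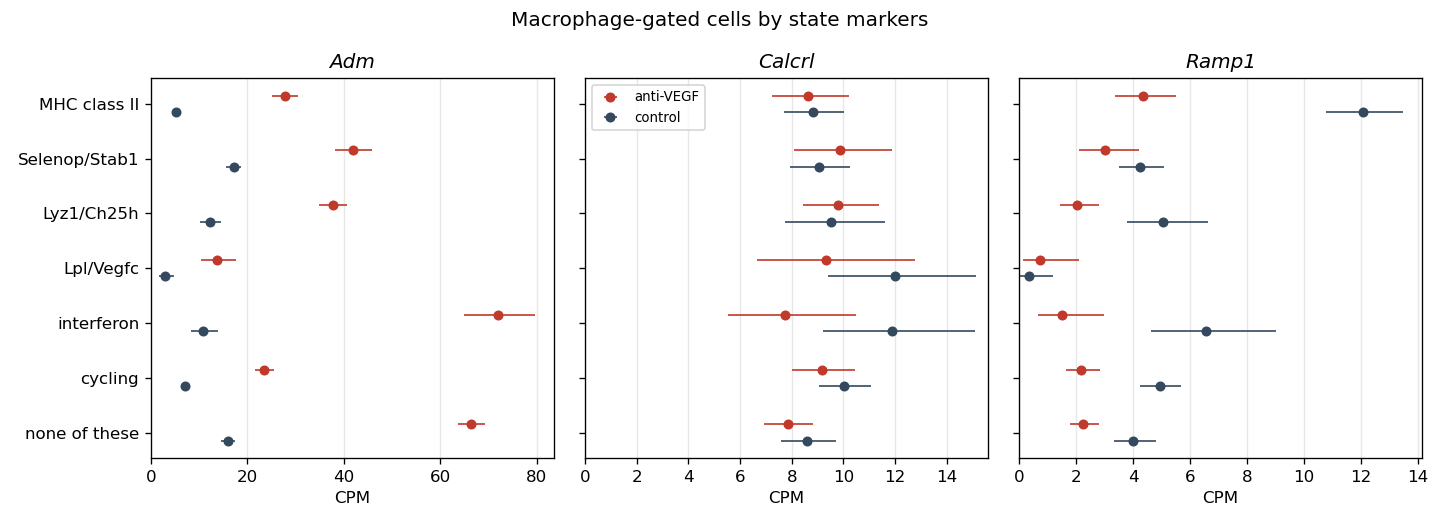
Level (CPM) of Adm, Calcrl and Ramp1 in macrophage-gated cells with the markers of each state, anti-VEGF (red) above control (dark blue), with 95% Poisson intervals. Adm is to the right in the anti-VEGF library in all 7 rows, Calcrl overlaps in most, and Ramp1 in MHC class II cells stands at 4.34 in anti-VEGF and 12.1 in control.

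By level, Ramp1, which makes the CGRP receptor, was highest in the T, NK, mast/basophil and plasmacytoid dendritic cell (pDC) gates and much lower in macrophages. Macrophage-gated cells, the largest class, still held the most Ramp1 UMIs, 211 of 659 in the anti-VEGF library and 562 of 1308 in control. Next by UMIs came T-gated cells, with 146 in the anti-VEGF library and 245 in control. T-gated cells held 48.9 CPM in the anti-VEGF library and 39.7 CPM in control (1.23-fold, 0.997 to 1.52). Without cells of 2 lineages these were 159 CPM in the anti-VEGF library and 169 CPM in control. NK-gated cells held 47.6 CPM in the anti-VEGF library and 35.0 CPM in control (1.36-fold, 0.888 to 2.05). In these the ratio did pass the fold rule without cells of 2 lineages, at 212 CPM from 19 UMIs in the anti-VEGF library and 73.1 CPM from 30 UMIs in control (2.90-fold, 1.54 to 5.33). Mast/basophil-gated cells, with 9 anti-VEGF and 24 control cells, held 120 CPM in the anti-VEGF library and 106 CPM in control. Without cells of 2 lineages they held 413 CPM in the anti-VEGF library and 236 CPM in control (1.75-fold, 0.812 to 3.72). The 4 anti-VEGF pDC-gated cells held 86.2 CPM from 6 UMIs and the 21 control ones 66.6 CPM from 44 UMIs. Without cells of 2 lineages, 0 UMIs were left in 2 anti-VEGF pDC-gated cells. The 9 control ones left held 191 CPM from 18 UMIs. With all cells kept, the intervals of T- and NK-gated cells overlapped in both libraries, as did those of pDC- and mast/basophil-gated cells. Only in control did those of the pDC and mast/basophil gates both lie above those of the T and NK gates. Collagen-gated cells without Ptprc gave 2 UMIs in each library.

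In macrophages, Ramp1 was lower in the anti-VEGF library. Macrophage-gated cells held 2.42 CPM in the anti-VEGF library and 5.45 CPM in control (0.444, 0.378 to 0.522), and monocyte-marker macrophages held 5.77 CPM in the anti-VEGF library and 10.4 CPM in control (0.555, 0.445 to 0.689). The share of cells with a UMI was 4.91% in anti-VEGF and 9.30% in control macrophage-gated cells, and 0.348% in anti-VEGF and 0.506% in control collagen-gated cells without Ptprc. Ramp1 was lower by the fold rule in 4 of the 5 compared classes with 30 or more UMIs, and T-gated cells were the exception. The share of all genes lower was 7.03% in macrophage-gated, 4.61% in monocyte-marker, 3.35% in Acp5-high, 8.1% in neutrophil-gated and 6.84% in T-gated cells. In Acp5-high cells the interval of the Ramp1 ratio held 1, at 0.597 (0.315 to 1.09) from 17 anti-VEGF and 37 control UMIs. In neutrophil-gated cells none of the 14 anti-VEGF and 20 control UMIs was left without cells of 2 lineages.

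Unlike the Adm difference, that of Ramp1 was as large among cells of like hypoxia-gene level. Its ratios from the lowest bin to the highest were 0.553, 0.461, 0.438, 0.384 and 0.333, all with intervals below 1, and with the control spread over bins its ratio was 0.456. MHC class II cells, which held the highest Ramp1 among the macrophage states of the control library, stood at 4.34 CPM in the anti-VEGF library and 12.1 CPM in control (0.360, 0.273 to 0.469), so that the difference was also present within this state. In Selenop/Stab1 cells it was smaller, 3.02 CPM in the anti-VEGF library and 4.24 CPM in control (0.712, 0.470 to 1.05). The 6 T-cell markers summed to 0.918 CPM in anti-VEGF and 1.67 CPM in control macrophage-gated cells, and the 8 NK markers to 3.01 CPM in the anti-VEGF library and 4.45 CPM in control. Among the macrophage-gated cells with no lymphoid, pDC, mast or mature DC marker, a subset chosen after seeing the data, the log2 ratio of Ramp1 was -1.06 (12 anti-VEGF and 39 control UMIs), against -0.91 in all of them.

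Ramp2, the partner that makes the main vascular adrenomedullin receptor, was highest in the few endothelial-gated cells. It stood at 319 CPM from 17 UMIs in 2 anti-VEGF cells and at 622 CPM from 157 UMIs in 5 control cells, of which 1 cell held 72. Among the larger classes, collagen-gated cells held the most. Those without Ptprc held 9.47 CPM in the anti-VEGF library and 17.8 CPM in control (0.531, 0.446 to 0.633). Those with Ptprc, most of them cells of 2 lineages, held 5.11 CPM in the anti-VEGF library and 14.2 CPM in control (0.359, 0.247 to 0.518). Without cells of 2 lineages this last ratio was 0.351 (0.173 to 0.677), from 14 anti-VEGF and 32 control UMIs. In macrophage-gated cells, Ramp2 was low, at 0.448 CPM in the anti-VEGF library and 1.08 CPM in control (39 anti-VEGF and 111 control UMIs), with a UMI in 1.14% of anti-VEGF and 2.19% of control cells. In T-gated cells these shares were 0.990% in anti-VEGF and 1.05% in control.

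Of the 7 classes compared, 4 had 30 or more Ramp2 UMIs, and Ramp2 was lower by the fold rule in all 4. The share of all genes lower was 7.03% in macrophage-gated, 3.35% in Acp5-high, 4.98% in collagen-gated cells without Ptprc and 5.45% in those with Ptprc. In Acp5-high cells the Ramp2 ratio was 0.476 (0.215 to 0.978), from 11 anti-VEGF and 30 control UMIs. The collagen-gated cells differed in Car9, a hypoxia-inducible carbonic anhydrase, which was found in 62.2% of those without Ptprc in the anti-VEGF library and in 27.8% in control. Cells with Car9 held 5.99 CPM of Ramp2 in the anti-VEGF library and 8.65 CPM in control, and cells without it 15.9 CPM in the anti-VEGF library and 22.2 CPM in control. Ramp2 was thus lower in Car9-positive than in Car9-negative cells of both libraries. Within each side of this split the ratio of anti-VEGF over control no longer passed the fold rule, at 0.692 (0.483 to 1.01) with Car9 and 0.718 (0.579 to 0.887) without, in place of 0.531. Adm showed the opposite order, at 33.5 CPM in the anti-VEGF library and 16.6 CPM in control with Car9, and 22.8 CPM in the anti-VEGF library and 11.3 CPM in control without, with ratios of 2.02 on both sides.

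Ramp3, the other adrenomedullin receptor partner, was highest in mature DC. The level there was 427 CPM (369 to 492, from 191 UMIs) in the anti-VEGF library and 252 CPM (227 to 280, from 350 UMIs) in control, a ratio of 1.69 (1.41 to 2.02). A UMI was found in 87.5% of the 24 anti-VEGF cells and 84.2% of the 57 control cells, and in 0.174% of anti-VEGF and 0.506% of control collagen-gated cells without Ptprc. Removing cells of 2 lineages gave 640 CPM in the anti-VEGF library and 494 CPM in control (1.30-fold, 1.05 to 1.59), which is below the 1.5-fold threshold. Of these mature DC, 12.5% in the anti-VEGF library and 33.3% in control also met the macrophage gate.

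T-gated cells held 31.5 CPM of Ramp3 in the anti-VEGF library and 11.2 CPM in control (2.82-fold, 2.04 to 3.90), beside 7.12% of genes higher there. A UMI was found in 17.8% of cells in the anti-VEGF library and 15.2% in control, with a mean of 5.22 UMIs in the anti-VEGF cells that held it and 2.38 in the control cells. Below the macrophage gate these shares were 22.6% (12 of 53 cells) in the anti-VEGF library and 8.11% (6 of 74 cells) in control, at a ratio of levels of 4.39 (2.52 to 8.11). Among T-gated cells that also met the macrophage gate they were 12.5% in the anti-VEGF library and 19.7% in control, at a ratio of 1.13 (0.670 to 1.84). Without cells of 2 lineages the levels were 131 CPM in the anti-VEGF library and 25 CPM in control (5.23-fold, 3.0 to 9.66). By subset, cells with Cd8a and without Foxp3 held 2.63 CPM in the anti-VEGF library and 1.04 CPM in control. Cells with Foxp3, the regulatory T cell factor, held 8.42 CPM in the anti-VEGF library and 8.70 CPM in control, and cells with Cd4 alone held 95.6 CPM in the anti-VEGF library and 38.1 CPM in control (11 anti-VEGF and 18 control cells). Cells with none of these 3 genes held 83.6 CPM in the anti-VEGF library and 14.2 CPM in control. The counts rest on 18 anti-VEGF and 29 control cells with a UMI. These subsets include T-gated cells that also met the macrophage gate, and their depth differed. Median UMIs in the anti-VEGF library were 28668 with Cd8a, 27368 with Foxp3, 10969 with Cd4 alone and 15067 with none. In control they were 30520, 34664.5, 27954.5 and 19564 in the same order. How far macrophage UMIs lowered the Ramp3 level of each subset was not tested.

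In macrophages Ramp3 was low, and lower in the anti-VEGF library. Macrophage-gated cells held 0.230 CPM from 20 UMIs in the anti-VEGF library and 0.805 CPM from 83 UMIs in control (0.285, 0.166 to 0.469). Monocyte-marker macrophages held 1.82 CPM in the anti-VEGF library and 3.29 CPM in control (0.554, 0.370 to 0.819). With cells thinned to 5000 UMIs the direction in monocyte-marker macrophages turned, to a log2 ratio of 0.73 in place of -0.60, from 11 anti-VEGF and 5 control UMIs. The 6 mature DC markers summed to 7.92 CPM in anti-VEGF and 11.6 CPM in control macrophage-gated cells. In those with no lymphoid, pDC, mast or mature DC marker, 0 anti-VEGF and 1 control Ramp3 UMIs were left.

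**Figure D5:**
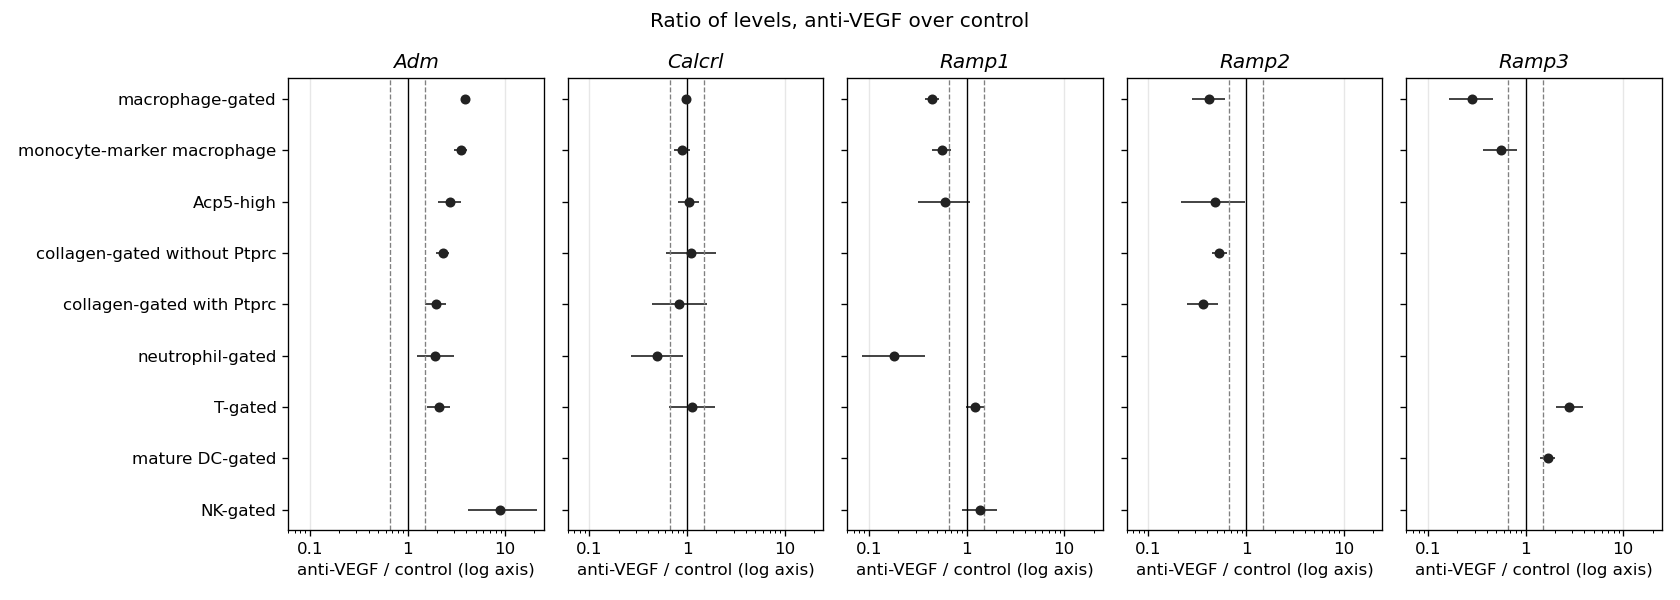
Ratio of anti-VEGF over control levels (log axis) for each gene in classes with 30 or more UMIs, with 95% exact intervals (counting error only). The solid line marks 1 and the dashed lines 1.5-fold either way. Adm lies right of the line in every class shown, Calcrl near it except in neutrophil-gated cells, and Ramp3 on both sides. Ramp1 lies left of it in macrophage, Acp5-high and neutrophil gates and right of it in T- and NK-gated cells. Ramp1 has no point for collagen-gated cells, which held too few UMIs. Ramp2 lies left of the line in macrophage-gated, Acp5-high and collagen-gated cells.

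The make-up of the libraries moved some of the levels over all cells. Over each library as a whole, Adm was 34.8 CPM in the anti-VEGF library and 9.68 CPM in control, beside 8.64% of genes higher and 6.92% lower, and with the control make-up of classes the anti-VEGF level was again 34.8 CPM. Ramp1, lower by the fold rule, stood at 3.19 CPM in the anti-VEGF library and 5.84 CPM in control, and at 4.33 CPM with the control make-up, where its ratio of 0.741 no longer passed the fold rule. Ramp3 stood at 2.37 CPM in the anti-VEGF library and 2.95 CPM in control, but at 4.50 CPM with the control make-up, which holds more mature DC and T cells, so the order of the libraries turned, at a ratio of 1.53 in place of 0.804.

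Receptor and partner were seldom seen in the same cell. Calcrl together with any of the 3 partners was found in 124 anti-VEGF cells (1.52%) and 233 control cells (2.16%). In macrophage-gated cells there were 44 in anti-VEGF (1.29%) and 104 in control (2.32%), and the product of the single shares gave 39.7 cells in anti-VEGF and 87.4 in control. Ramp1 was among the partners in 34 of the 44 anti-VEGF and 80 of the 104 control cells. Monocyte-marker macrophages held a larger share, 4.65% (32 cells) in the anti-VEGF library and 7.59% (50 cells) in control. There the product of the single shares gave 25.5 cells in anti-VEGF and 43.5 in control. Their median depth was also higher, at 28778 UMIs in anti-VEGF and 29398 in control. In macrophage-gated cells it was 22896 in anti-VEGF and 21532 in control. At this depth a cell without a UMI is not shown to lack the transcript.

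Among 34 other genes of the pathway, Ackr3 stood out. ACKR3 is a scavenging receptor that binds adrenomedullin as well as the chemokine CXCL12. It was 11.6 CPM in anti-VEGF macrophage-gated cells and 1.5 CPM in control ones (7.72-fold, 6.51 to 9.20), with a UMI in 14.3% of anti-VEGF and 2.16% of control cells. In monocyte-marker macrophages it was 16.2 CPM in the anti-VEGF library and 4.87 CPM in control (3.32-fold). In collagen-gated cells without Ptprc its level was 31.7 CPM in the anti-VEGF library and 28.2 CPM in control, a ratio of 1.12 (1.00 to 1.26) that did not pass the fold rule.

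Ackr3 also rose with the hypoxia genes from bin to bin, but it differed between the libraries within bins. In the highest bin it was 23.0 CPM in the anti-VEGF library and 10.8 CPM in control (2.12-fold, 1.65 to 2.76), and in the next 9.29 CPM in the anti-VEGF library and 2.75 CPM in control (3.38-fold, 2.41 to 4.86). In this it differed from Adm, whose ratios in the same bins were 0.979 and 1.02.

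Of the 34 pathway genes, 23 had 30 or more UMIs in macrophage-gated cells. By the fold rule 1 of these was higher and 1 lower, beside 5.58% of all genes higher and 7.03% lower in this class. Ackr3 was the higher one, and Adcy3, an adenylate cyclase, was lower, at 9.30 CPM in the anti-VEGF library and 15.0 CPM in control (0.619). The median log2 ratio of the list was -0.13, beside -0.09 over all 13265 genes with that many UMIs. Pam, the enzyme that amidates the peptide into its active form, had a ratio of 1.00 (0.953 to 1.06). Arrb1, a beta-arrestin, had a ratio of 1.46, Pde3b, which breaks down cyclic AMP, 1.31, and Gnas, the stimulatory G protein subunit, 1.27. The other 17 genes had ratios between 0.748 and 1.02.

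Other ligands of the receptor were scarce in macrophages. Calca, the CGRP gene, gave 4 UMIs in each library, Calcb 15 in anti-VEGF and 4 in control, and Iapp 0 in both. Adm2, a related peptide gene named here after its values were seen, was a transcript of collagen-gated cells without Ptprc, at 7.08 CPM in the anti-VEGF library and 3.36 CPM in control (2.11-fold), and gave 8 anti-VEGF and 1 control UMIs in macrophage-gated cells.

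Across 24 profiles, each 1 class in 1 library with at least 20 cells, genes were ranked by Pearson correlation of log2(CPM + 1) with each member. These profiles share libraries, depth and mixed cells, and the values are descriptions. Adm ran most closely with Eno2, a glycolytic enolase (r = 0.87), Cebpg, Bnip3, Ankrd37 and Adamtsl5. Calcrl ran with Wasf2 (0.87), Rhog, Mgat4a, Daglb and Cxcr4, and Ramp1 with Rasal3 (0.93), Atp2a3, Itch, S1pr4 and Cd69, an early activation marker of lymphocytes. Ramp2 ran with Obsl1 (0.91), Spry4, Chrnb1, Mpdz and Crabp1. Ramp3 ran with Ccl22 (0.93), which is itself a mature DC gate marker, and with Tbc1d4, Slc4a8, Arl5a and Map3k14.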

How the data were processed

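Cells were sorted for CD45 and sequenced with a droplet kit that reads the 3′ end of transcripts. The authors aligned to mm10 with Cell Ranger 3.0.2, per the submitters' processing notes, while the deposited matrices name software version 3.1.0 in their header. The authors deposited unnormalised UMI counts for every gene in every cell, and each matrix holds only barcodes with at least 500 UMIs. Whether the counting used strand is not stated in the sources at hand, and reads from overlapping genes were not separated.

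Cells with at least 500 UMIs, 300 genes and at most 10% mitochondrial UMIs were kept, which left 92.5% of the 8825 anti-VEGF and 11687 control barcodes. The libraries share 35 barcodes. Each cell went to the first gate it met, in a set order, by the number of listed markers with a UMI (7 of 10 for macrophages, 3 of 6 for T cells, 4 of 7 for collagen genes). The marker lists, the pathway list and the alternatives were written down at the start, and the members and lists were chosen with earlier results of these data known. Gate and state thresholds, the T-cell subsets and the Car9 split were set after seeing the data. No doublet caller was run: cells meeting the gates of 2 lineages were kept and results were repeated without them.

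For each class in each library, the UMIs of a gene were added up over cells and expressed per 1000000 UMIs of that class (CPM). Since the reads come from the 3′ end, CPM were not scaled by gene length. Levels have exact Poisson, shares exact Clopper-Pearson and ratios exact conditional binomial intervals at 95%, which cover counting error only. No test between groups was possible with 1 library each, so a ratio of at least 1.5 either way with 30 or more UMIs over both libraries was counted. Named genes are the 5 members, pathway genes with 30 or more UMIs in macrophage-gated cells, gate and hypoxia genes, and the 5 genes most like each member among 8123 genes of at least 20 CPM in 1 profile. Of 18 hypoxia genes listed, 17 were found by symbol. The ratio step was tested on simulated data. Python 3.11.15, numpy 2.4.6, scipy 1.17.1 and pandas 2.3.3 were used, with edgeR 4.0.16 only for TMM scaling of the deposited counts as an alternative.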

Additional observations from a re-analysis of the deposited data

Results flagged for a closer look

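Ramp3 differed between the libraries in opposite directions in different cell classes. Its ratio of anti-VEGF over control was 1.69 in mature DC-gated cells and 2.82 in T-gated cells, but 0.285 in macrophage-gated cells and 0.554 in monocyte-marker macrophages. The mature DC ratio was 1.30 without cells of 2 lineages, which is below the 1.5-fold rule. With cells thinned to 5000 UMIs, the monocyte-marker ratio turned direction, to a log2 ratio of 0.73. The difference between these ratios was not tested, since each group is 1 library. The macrophage values rest on 20 anti-VEGF and 83 control UMIs.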

How the results depend on the processing

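No paired analysis was possible because each group is 1 library. Log2 ratios here use a pseudocount of 1 CPM unless stated. Of 238 recomputed log2 ratios, 198 stayed within the counting interval of the reported value and 35 moved outside it. The other 5 turned direction, which was counted only where the reported ratio passed the fold rule. Ratios that had not passed it, such as Calcrl in macrophage-gated cells (-0.042, alternatives -0.064 to 0.156), could change sign and count as stayed or moved. By the order of the gates, macrophage-gated, monocyte-marker and Acp5-high cells held 0 cells of 2 lineages. Removing such cells could not change the ratios of these classes, and these unchanged ratios are among the 198. In macrophage-gated cells Adm went to 1.75 with 1 more marker required, 1.97 with TMM factors and 1.59 with a pseudocount of 5 CPM, against 1.86. With pseudocounts of 5 and 0.1 CPM, Ramp1 was -0.49 and -1.14 (against -0.91), Ramp2 -0.16 and -1.10 (-0.52) and Ramp3 -0.15 and -1.46 (-0.55). Ramp3 was -0.72 with 1 more marker and -0.28 thinned to 5000 UMIs. An alternative added after seeing the data kept only the 387 anti-VEGF and 767 control macrophage-gated cells with no lymphoid, pDC, mast or mature DC marker. It gave 2.65 for Adm, 0.16 for Calcrl, -1.06 for Ramp1, -0.27 for Ramp2 and -0.18 for Ramp3. The difference in share of cells with a UMI became 26.2 points for Adm, 5.24 for Calcrl, -2.11 for Ramp1, -0.0071 for Ramp2 and -0.13 for Ramp3. Thinned, these differences were 10.8 for Adm, 0.016 for Calcrl, -1.47 for Ramp1 and -0.46 for Ramp2, against 20.1, 1.87, -4.40 and -1.05 as reported.

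The 5 ratios that passed the fold rule and turned rest on few UMIs. Thinned, Ramp3 in monocyte-marker macrophages was 0.73 (11 anti-VEGF and 5 control UMIs), Ramp1 in Acp5-high cells 0.58 (3 anti-VEGF, 1 control) and Ramp2 there 0.076 (1 anti-VEGF, 1 control). Without cells of 2 lineages, Calcrl in neutrophil-gated cells was 1.19 (1 anti-VEGF, 0 control) and Adm in T-gated cells -1.59 (1 anti-VEGF, 5 control). The Adm ratio matched on hypoxia bins was 0.964, 0.880 with 10 bins, 1.12 without glycolysis genes and 1.10 in collagen-gated cells. Pathway genes past the fold rule were 1 higher and 1 lower, 2 and 0 with TMM factors, and 3 and 5 without a filter on low counts. Member and class pairs were 8 higher and 11 lower, and 12 and 15 without that filter. Of the 8 higher, 7 were Adm, which was chosen for this difference, and over all genes 3.28% to 8.72% were higher and 3.35% to 8.1% lower, by class. The cause of these shifts was not tested. Low counts limit Ramp3 in macrophage-gated cells (20 anti-VEGF UMIs) and Ramp2 in monocyte-marker macrophages (6 anti-VEGF and 16 control UMIs).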
